A study of Mus musculus with 5 samples.

Results

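Actb, Tmsb4x, Tmsb10, Myl12a, Sept6, Flna and Arl4c are 7 genes of the actin, thymosin and septin cytoskeleton, described here in single CD3+ cells from the mouse brain after stroke. They are 7 of the 2926 mouse genes in the deposited table and were found there by symbol. Actb and Tmsb4x were chosen because they led groups of T cell-like cells in earlier work on these data, and Sept6, Arl4c and Myl12a because their differences with training had been among those with the smallest p. The training values of the genes are therefore given as a description, with no test, and so are the values of Actb and Tmsb4x over the T cell marker score. In the deposited table Actb lies on chromosome 5, Tmsb10 on 6, Myl12a on 17 and Arl4c on 1, while Tmsb4x, Sept6 and Flna lie on chromosome X.

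All mice were wildtype C57BL/6 with a stroke induced by photothrombosis, in which light on an injected dye clots the vessels of the cortex, and brains were taken at day 14. The 3 trained samples came from mice given running wheels from day 2, and the 2 untrained samples from mice with the same stroke and no training. CD3+ cells of the hemisphere on the side of the stroke were sorted singly into 384-well plates for SORT-seq, a plate method in which each well holds 1 cell and its own barcode. The labels do not say that the samples came from separate animals, and a p-value here covers the spread among the samples alone.

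The table held 692 cells, 66, 124 and 168 of trained samples 1, 2 and 3 and 144 and 190 of untrained samples 1 and 2. Its values are scores and not counts: they ran from -2.12 to 3.74, 72.7% of them lay below 0 and 0 were whole numbers. A score sets a cell against the other cells for 1 gene, so levels of different genes cannot be compared, and depth is unknown. By their form the scores may be batch-integrated, so a difference between them is not a difference in expression. Untrained sample 2 stood apart: 1632 rows, Arl4c among them, had a mean of 0 there within 1e-06, and 6 of the 7 genes had a highest value of 2.52 in its cells. Of the 50 cells with a mean score of 8 measured myeloid markers above 1, 41 lay in that sample. Actb has a near-identical relative, Actg1, and Myl12a has Myl12b, and how shared reads were counted is not given in the sources used here.

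T cells crawl, squeeze through vessel walls and form the contact with other cells on a cortex of actin filaments that is rebuilt continuously. Thymosins hold back free actin monomers, myosin pulls on the filaments, filamin links them to each other and to integrins, and septins form filaments of their own beside the membrane. In migrating T cells septins are known for keeping the cortex stiff, and filamin A for integrin-dependent adhesion.

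The sequences before the transcription starts of the thymosin genes are shown because this pair kept the highest correlation over cells once the mean score of all genes had been taken out. They are the 250 bases before the start, 5′ to 3′ on the minus strand, from RefSeq on GRCm38.p6. Tmsb4x is at chrX:167209219-167209468, and Tmsb10, for which RefSeq lists several starts, is at chr6:72958749-72958998 before the outermost one. Capitals mark GC boxes (GGGCGG or its complement CCGCCC).
Tmsb4x: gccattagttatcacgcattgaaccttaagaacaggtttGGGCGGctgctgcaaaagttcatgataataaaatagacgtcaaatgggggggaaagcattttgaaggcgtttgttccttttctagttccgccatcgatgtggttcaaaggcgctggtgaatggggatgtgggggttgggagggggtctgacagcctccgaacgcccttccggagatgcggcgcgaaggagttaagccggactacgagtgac
Tmsb10: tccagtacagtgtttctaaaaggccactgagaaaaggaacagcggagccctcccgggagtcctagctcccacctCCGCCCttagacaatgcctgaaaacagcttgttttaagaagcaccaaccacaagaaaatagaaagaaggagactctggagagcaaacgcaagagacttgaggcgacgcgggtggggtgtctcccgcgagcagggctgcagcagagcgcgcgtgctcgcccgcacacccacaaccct
Each of these sequences holds 1 GC box. RefSeq windows of 300 bases (250 before and 50 after a start) were matched for 5 of the 7 genes (Tmsb4x, Tmsb10, Myl12a, Flna and Arl4c), with 7 windows in all, 3 of them overlapping windows of Tmsb10. A GC box was in 7 of these 7 windows and in 35.7% of the 32851 windows of all genes, searched on both strands. CCAAT was in 1 (Arl4c) and in 37.4% of all windows. TATAAA was in 0 and in 13.6%, and the CArG box, the motif of serum response factor at many actin genes, in 0 and in 1.63%. Actb, the actin gene among the 7, had no matched window, so these counts do not cover it. The matched windows held from 52.7% (Tmsb4x) to 74.0% (Arl4c) G and C, and the median over all windows was 52.7%. What part this has in the GC box count was not tested. A GC box in the overlap of Tmsb10 windows counts for more than 1 of them. A match is a run of letters and not a shown binding site.

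The genes were first set against a T cell marker score, the mean score of Cd3d, Cd3e, Cd3g, Cd2, Cd247, Lck and Thy1. A total of 345 cells lay above 0 and 347 at or below it, 101 of them within 0.1 of 0, so the split is a range and not a cell type. Every one of the 7 genes had a higher mean in cells above 0 of 5 of 5 samples. Averaged over samples, 2675 of 2919 genes tested were higher in cells above 0.

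Actb, the cytoplasmic beta actin, had a mean of 0.441 ± 0.149 above 0 and -0.427 ± 0.0778 at or below it (SD, n = 5). Its difference was 0.771, 1.11 and 0.870 in trained and 0.581 and 1.01 in untrained samples. Tmsb4x, the main actin-sequestering thymosin of lymphoid cells, had means of 0.446 ± 0.128 above and -0.424 ± 0.0721 at or below 0. The difference of Tmsb4x was the most even of the 7, at 0.832, 0.854 and 0.859 in trained and 0.813 and 0.991 in untrained samples.

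Tmsb10, a related thymosin that also binds actin monomers, had means of 0.644 ± 0.261 above and -0.384 ± 0.0947 at or below 0. Its difference was 0.962, 0.926 and 0.934 in trained and 0.730 and 1.59 in untrained samples, so the value of untrained sample 2 lay far above the others. With 1.03 ± 0.098 (SE) Tmsb10 had the largest difference of the 7, and 8 of the 2919 genes tested had a larger one. Actb (0.868 ± 0.065) was exceeded by 28 genes and Tmsb4x (0.870 ± 0.035) by 27. Both had been chosen on T cell-like cells, so their ranks are a description.

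Myl12a, a regulatory light chain of non-muscle myosin, differed by 0.517 ± 0.047, with 0.543, 0.649 and 0.511 in trained and 0.298 and 0.583 in untrained samples. Sept6, a septin, differed by 0.586 ± 0.050, with 0.580, 0.622 and 0.625 in trained and 0.356 and 0.746 in untrained samples. Flna, the crosslinker filamin A, differed by 0.506 ± 0.044, with 0.377, 0.576 and 0.435 in trained and 0.467 and 0.676 in untrained samples. In each of these genes the difference was above 0 in every sample, and the spread between samples was smaller than the difference. Arl4c, an Arf-like small GTPase that acts at the plasma membrane, differed by 0.602 ± 0.049, with 0.588, 0.700 and 0.738 in trained and 0.380 and 0.602 in untrained samples. Untrained sample 1 had the lowest difference of Actb, Tmsb4x, Tmsb10, Myl12a, Sept6 and Arl4c.

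These differences stood on a split that moved nearly every gene. By limma 2592 of 2919 genes passed an adjusted p of 0.05, which is 88.8%, and 83.2% passed as higher above 0. Tmsb10, Myl12a, Sept6, Flna and Arl4c, 5 of 5, passed as higher, and against that share their count says little about them. Actb and Tmsb4x were chosen on T cell-like cells and are not counted. As lower above 0, 5.55% of all genes passed. The differences of the 5 counted genes ran from 0.506 (Flna) to 1.03 (Tmsb10), and the median over all genes tested was 0.203. The mean score of all genes in a cell correlated over cells with the T cell marker score with a Spearman coefficient of 0.705, 0.850 and 0.851 in trained and 0.780 and 0.619 in untrained samples. With each gene regressed on that mean within a sample, a setting added after the data were seen, the differences were 0.28 for Tmsb10, 0.09 for Tmsb4x and Arl4c, 0.08 for Flna, 0.07 for Sept6 and 0.06 for Actb and Myl12a. Then 0 of 2919 genes passed limma, and 488 had an unadjusted p under 0.05. With the mean subtracted in place of the regression, 49.4% of genes passed and 25.1% passed as higher, among them Tmsb10, Myl12a, Sept6, Flna and Arl4c.

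**Figure D1:**
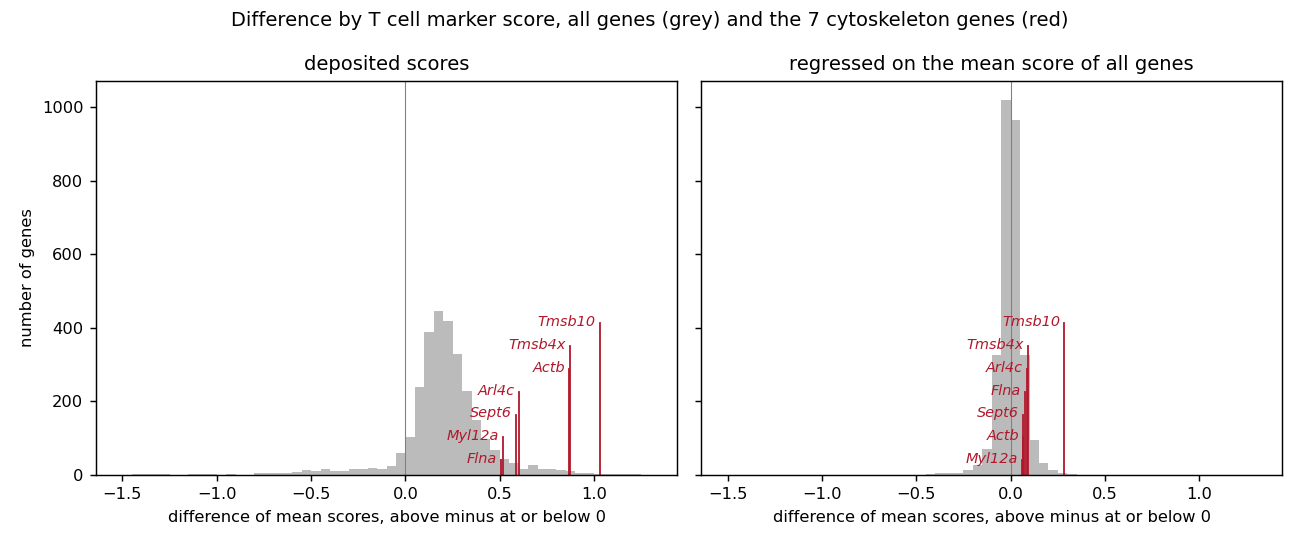
The number of genes (vertical axis) by their difference in mean deposited score between cells above and cells at or below a T cell marker score of 0 (horizontal axis), for the scores as deposited (left) and regressed on the mean score of all genes (right). Grey bars are the other genes and red lines the 7 cytoskeleton genes, which lie between 0.506 and 1.03 on the left and between 0.06 and 0.28 on the right.

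Each sample's cells were also split evenly into low, middle and high tertiles of the T cell marker score. The mean of every one of the 7 genes was higher in the middle than in the low tertile and higher in the high than in the middle tertile, in 5 of 5 samples. The mean score of all genes climbed at both steps in 5 of 5 samples too, with averages of -0.153, -0.005 and 0.108. The share of all genes that climbed so was not counted, so the steps are a description. Actb had means over the samples of -0.557 ± 0.086 in the low, 0.034 ± 0.187 in the middle and 0.573 ± 0.161 in the high tertile (SD, n = 5). The means of Tmsb4x were -0.579 ± 0.069, 0.119 ± 0.124 and 0.521 ± 0.144. Those of Tmsb10 were -0.534 ± 0.116, 0.206 ± 0.183 and 0.706 ± 0.244. On average the first step was the wider one for every one of the 7 genes. For Tmsb4x (0.698 ± 0.164 against 0.402 ± 0.264) and Tmsb10 (0.739 ± 0.123 against 0.501 ± 0.425) this lay within the spread over samples. In the low and high tertiles Myl12a had -0.340 and 0.357, Sept6 -0.340 and 0.404, Flna -0.262 and 0.365 and Arl4c -0.316 and 0.412. In untrained sample 2 the middle tertile of each gene lay below 0 and the lowest of the 5 samples, at -0.262 for Actb, -0.120 for Tmsb10 and -0.235 for Sept6. The tertiles were cut within each sample and are not at equal marker levels. The T cell marker score of this middle tertile was -0.226, against 0.030 to 0.091 in the other samples. Its mean score of all genes was -0.080, against -0.010 to 0.032.

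**Figure D2:**
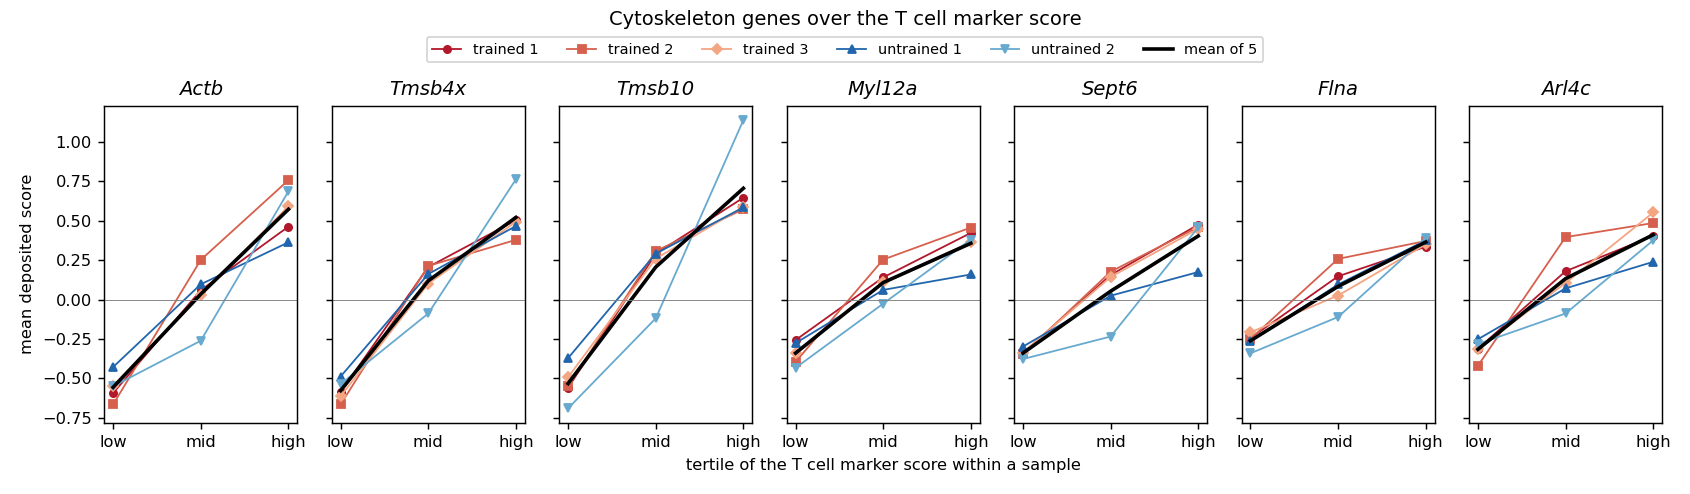
Mean deposited score (vertical axis) of each cytoskeleton gene in the low, middle and high tertile of a sample's cells by T cell marker score (horizontal axis), 1 coloured line per sample and a black line for the mean of 5. All lines climb at both steps, and untrained sample 2 lies lowest in the middle tertile of every gene, where its T cell marker score was also the lowest.

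Over single cells the actin and thymosin genes were again in front, of which Actb and Tmsb4x had been chosen on T cell-like cells. The Spearman coefficient with the T cell marker score, averaged over samples, was 0.741 for Tmsb10, the highest of all genes outside the score, 0.722 for Actb and 0.700 for Tmsb4x. It was 0.621 for Sept6, 0.568 for Myl12a, 0.560 for Arl4c and 0.534 for Flna, and the median of all genes was 0.310. Actb followed the mean score of all genes more closely than the T cell markers (0.812), as did Tmsb4x (0.748) and Arl4c (0.607), whereas Tmsb10 (0.695) and Sept6 (0.584) did not. These are descriptions over cells of the same sample, whose depth is unknown.

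Other markers moved along the same split. Cells high in Kcnq1ot1 and A630089N07Rik, a pair of noncoding RNAs with a mean score above 1 in 175 cells, had low scores of the 7 genes. Actb averaged -0.728 in these cells and 0.264 in the others, Tmsb4x -0.775 and 0.287, and Tmsb10 -0.566 and 0.357. The other 4 genes lay between -0.420 and -0.314 there and between 0.151 and 0.213 in the others. In the 50 cells high in myeloid markers Tmsb10 averaged -0.656, against 0.184 in the other cells, and Sept6 -0.305, against 0.051, while Tmsb4x was higher (0.190, against 0.005). These means pool the samples, with 41 of the cells in untrained sample 2 and 0 in untrained sample 1. By sample, Tmsb4x was higher in such cells of trained sample 2 and untrained sample 2. It was lower in trained samples 1 (-0.002, against 0.043) and 3 (-0.239, against -0.004). Sept6 was higher in trained sample 3 (0.420, against 0.081). Tmsb10 was lower in every sample with such cells. Of the cells high in myeloid markers 2 lay above a T cell marker score of 0. Markers of B cells, neurons, astrocytes, endothelium and neutrophils were not analysed here, and of the 6 oligodendrocyte markers 2 were. The mean score of those 2 ran from 0.171 to 0.256 in trained and from 0.150 to 0.312 in untrained samples above a T cell marker score of 0. At or below 0 it ran from -0.238 to -0.199 in trained and from -0.208 to -0.189 in untrained samples. The NK cell markers ran from 0.231 to 0.275 in trained and from 0.143 to 0.413 in untrained samples above 0, and from -0.332 to -0.259 in trained and from -0.279 to -0.167 in untrained samples at or below it. Their part in the differences was not tested.

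The differences over the T cell marker score were then taken again without the cells of these kinds that could be left out. Without cells high in the noncoding RNAs they were 0.850 for Tmsb10, 0.587 for Actb, 0.537 for Tmsb4x, 0.480 for Sept6, 0.456 for Arl4c, 0.384 for Flna and 0.333 for Myl12a. The differences of Tmsb4x and Myl12a were thus smaller by more than 1.5 times than with all cells. Without cells high in myeloid markers they were 0.992 for Tmsb10, 0.940 for Tmsb4x, 0.910 for Actb, 0.637 for Arl4c, 0.577 for Sept6, 0.529 for Myl12a and 0.498 for Flna.

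CD8-gated cells (mean score of Cd8a and Cd8b1 above 0, Cd4 at or below 0) were set against CD4-gated cells (the reverse) of the same sample. None of the 7 genes differed between the gates by the limma test, in which 5 of 2923 genes passed (0.171%) and 383 had an unadjusted p under 0.05. There were 159 CD8-gated cells (17, 34 and 40 in trained and 36 and 32 in untrained samples) and 146 CD4-gated cells (16, 38 and 29 in trained and 35 and 28 in untrained samples). Both gates are ranges of a score and not detected transcripts: 50 CD8-gated and 34 CD4-gated cells had a gate score of at most 0.25.

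Flna had the widest gap of the 7, on the CD4 side. It averaged 0.123, 0.284 and 0.046 in CD8-gated cells of trained samples and -0.086 and -0.146 in those of untrained samples. In CD4-gated cells it averaged 0.274, 0.261 and 0.225 in trained and 0.205 and 0.550 in untrained samples. The gated ranges overlapped only through trained sample 2, whose CD8-gated mean lay above its CD4-gated one. The difference was -0.26 ± 0.083 (SE, limma adjusted p = 0.254), lower on the CD8 side in 4 of 5 samples. Without untrained sample 2 it was -0.15.

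The mean of Actb was 0.141 ± 0.144 over CD8-gated samples and 0.280 ± 0.178 over CD4-gated samples (SD, n = 5), which differ by -0.14 ± 0.083 (limma adjusted p = 0.503). By sample the difference was -0.063, 0.040 and -0.017 in trained and -0.038 and -0.615 in untrained samples, so that most of it lay in untrained sample 2, and without that sample it was -0.02. Tmsb4x behaved alike, with -0.008, 0.014 and 0.115 in trained and -0.039 and -0.451 in untrained samples (difference -0.07 ± 0.075, adjusted p = 0.71). In the CD4-gated cells of untrained sample 2, 5 of 28 cells were high in myeloid markers, against 1 of its 32 CD8-gated cells. The T cell marker score of that sample was 0.241 for the CD8 gate and 0.398 for the CD4 gate, and its mean score of all genes -0.012 and 0.110. What part these have in the gap was not tested.

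The mean of Tmsb10 was 0.377 ± 0.064 for the CD8 gate and 0.323 ± 0.260 for the CD4 gate, which differ by 0.05 ± 0.076 (limma adjusted p = 0.807). Its means were 0.343, 0.308 and 0.406 in trained and 0.356 and 0.473 in untrained samples for the CD8 gate, and 0.416, 0.196 and 0.084 in trained and 0.185 and 0.735 in untrained samples for the CD4 gate. The CD8-gated means thus kept within a narrow band while the CD4-gated means spread widely. Myl12a differed by 0.04 ± 0.076 (adjusted p = 0.847), Sept6 by 0.02 ± 0.069 (adjusted p = 0.910) and Arl4c by 0.01 ± 0.081 (adjusted p = 0.974). Myl12a was higher on the CD8 side in 4 of 5 samples (0.189, 0.090 and 0.122 in trained and 0.175 in untrained sample 1) and lower in untrained sample 2 (-0.355). That these p-values miss the threshold does not show that the gates are alike for these genes.

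Cells above 0 for both gates (57) and for neither (330) are given as a description. In cells of neither gate every one of the 7 genes had a mean below 0 in 5 of 5 samples, from -0.257 ± 0.112 for Tmsb4x and -0.229 ± 0.115 for Actb to -0.101 ± 0.074 for Flna. In cells of both gates Arl4c reached 0.641 ± 0.301 and Tmsb10 0.628 ± 0.25, and Flna had 0.202 ± 0.393, below its CD4-gated mean of 0.303, with -0.481 in the 6 cells of untrained sample 2. Trained sample 2 had 2 such cells. Noncoding transcripts were also high in cells of neither gate, with means between 0.461 and 0.830 over the samples. The mean score of all genes was itself below 0 in these cells of every sample, from -0.120 to -0.063. So was the T cell marker score, from -0.187 to -0.105. The low means are thus not particular to the 7 genes.

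**Figure D3:**
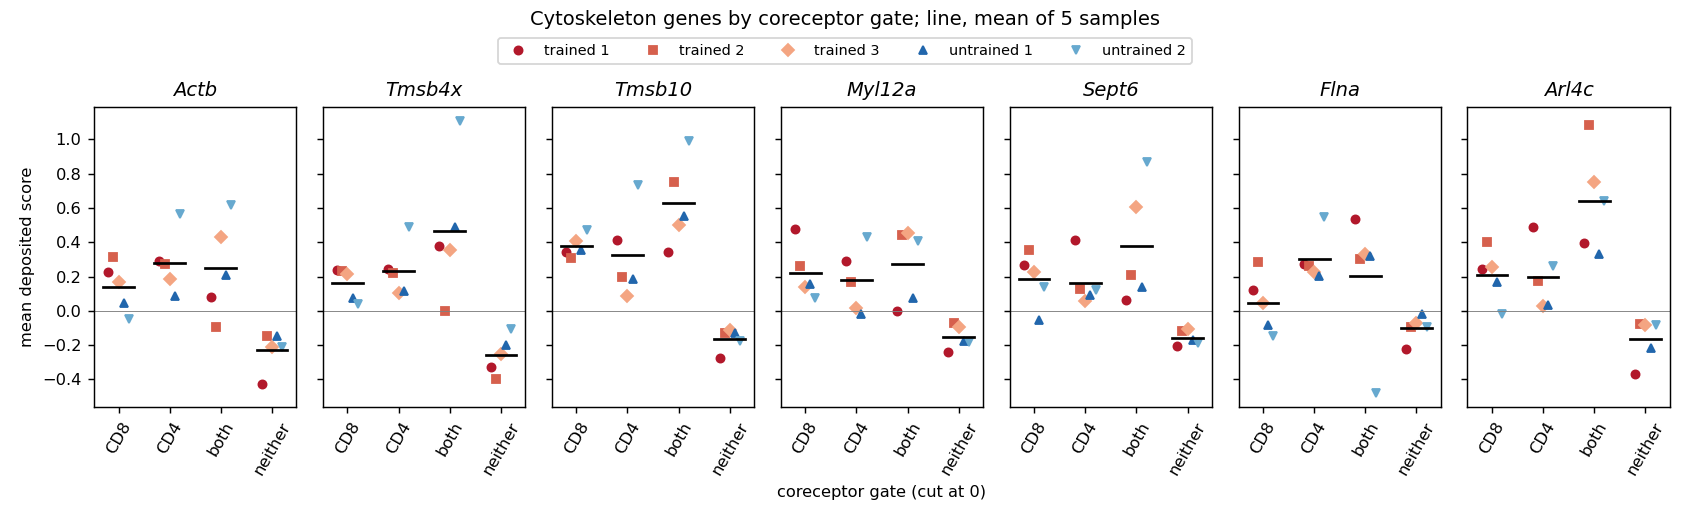
Mean deposited score per sample (vertical axis) of each cytoskeleton gene in cells of the CD8 gate, the CD4 gate, both or neither (horizontal axis), with black lines for the mean of 5 samples. CD8-gated and CD4-gated points overlap for every gene, and the points of neither gate lie below 0.

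The other cytoskeleton genes were read from 7 lists. Of 92 measured genes outside the 7, 0 passed limma between the gates, and 21 were higher and 71 lower in CD8-gated cells. Of all 2923 genes tested, 1126 were higher and 1797 lower. The median of the 92 was -0.062, against -0.027 over all genes tested. Actr2, a subunit of the filament-branching Arp2/3 complex, had -0.30 ± 0.072 (limma adjusted p = 0.131). Stk4, the kinase Mst1 of T cell migration, had -0.17 ± 0.059 (adjusted p = 0.254), Cdc42se2, a small Cdc42 effector, -0.17 ± 0.084 (adjusted p = 0.392) and Cfl1, the filament-severing cofilin, -0.13 ± 0.071 (adjusted p = 0.450). Myl6, a myosin light chain, had -0.10 ± 0.071 (limma adjusted p = 0.581). With the regression on the mean score of all genes 35 of the 92 were higher and 57 lower, with a median of -0.019. In that setting 1 of them passed as higher and 1 as lower, and of all genes 1411 were higher and 1512 lower.

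Over the T cell marker score 91 of the 92 passed as higher and 0 as lower. Of all genes 83.2% passed as higher and 5.55% as lower. The list of actin and monomer-binding genes (11 of 14 measured, Actb and both thymosins among them) had the highest median difference at 0.666, followed by capping, crosslinking and membrane linker genes at 0.403. The medians of the septin, microtubule and myosin lists lay between 0.349 and 0.364 and that of the Arp2/3, WAVE and WASP genes at 0.369, with 0.203 over all genes. The intermediate filament gene Vim had 0.67 ± 0.060 and Cfl1 0.67 ± 0.047. Myh9, the heavy chain that Myl12a regulates, had 0.55 ± 0.044, Wipf1, the partner of the Wiskott-Aldrich protein, 0.50 ± 0.035, and Sept7, the core septin, 0.37 ± 0.036. Vasp, which extends filaments, had 0.47, Arpc2 of the Arp2/3 complex 0.45, Zyx of adhesion sites 0.48 and Capza1, which caps filament ends, 0.41. The tropomyosin gene Tpm3 had 0.37, Cdc42se1 0.35, the tubulin gene Tuba1b 0.39 and the dynein light chain gene Dynll1 0.35. With the regression on the mean score of all genes 0 of the 92 passed, 60 were higher and 32 lower. Their median was then 0.019, against -0.001 over all genes. That of the actin and monomer-binding genes was 0.071 and that of the Arp2/3, WAVE and WASP genes -0.010.

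Trained and untrained samples were compared in all sorted cells and within each class, to describe how the 7 genes stood after wheel running. In all sorted cells Sept6, Arl4c and Myl12a were higher in trained samples without overlap. Sept6 averaged 0.097, 0.093 and 0.085 in trained and -0.033 and -0.053 in untrained samples, a difference of 0.135. Arl4c averaged 0.090, 0.149 and 0.115 in trained and 0.019 and 0.000 in untrained samples, a difference of 0.109. The 0.000 of untrained sample 2 is one of its 1632 means of 0, so it may not be a measured level, which was not tested. Myl12a averaged 0.102, 0.101 and 0.046 in trained and -0.019 and -0.029 in untrained samples, a difference of 0.107. These 3 genes were among those chosen on this contrast, and 11.0% of all genes were higher in trained samples without overlap. Without untrained sample 1, 5 of the 7 genes were higher without overlap (33.3% of all genes) and 1 was lower (27.1%). Without untrained sample 2, 3 were higher (19.1%) and 2 were lower (27.5%).

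Tmsb4x was on the other side, with 0.041, -0.030 and -0.007 in trained and 0.047 and 0.043 in untrained samples, a difference of -0.043 with no overlap, where 14.0% of all genes were lower without overlap. Actb (0.053), Flna (0.063) and Tmsb10 (-0.020) overlapped between the groups. Tmsb10 averaged 0.126, 0.105 and 0.118 in trained and 0.168 and 0.105 in untrained samples. On medians over cells in place of means Tmsb10 differed by 0.188, Sept6 by 0.236 and Arl4c by 0.208. The medians of Tmsb10 were 0.042, 0.023 and 0.064 in trained and 0.129 and -0.419 in untrained samples. Those of Arl4c were -0.086, 0.032 and -0.087 in trained and -0.067 and -0.443 in untrained samples. For both genes the groups overlapped, and the difference came from untrained sample 2. Untrained sample 2 had the smallest share of cells with a Sept6 score above 0. Sept6 was above 0 in 48.5%, 45.2% and 41.7% of trained and in 34.7% and 21.1% of untrained cells. By limma 0 of 2926 genes passed, and 226 had an unadjusted p under 0.05.

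In CD8-gated cells 5 of the 7 genes were higher in trained samples without overlap (Actb, Tmsb4x, Sept6, Flna and Arl4c), beside 21.6% of all genes. Sept6, Arl4c and Myl12a had been chosen on their training differences, so counts and medians of the 7 here are a description. Actb averaged 0.225, 0.313 and 0.171 in trained and 0.048 and -0.051 in untrained samples, and Tmsb4x 0.237, 0.232 and 0.217 in trained and 0.076 and 0.039 in untrained samples. Sept6 averaged 0.265, 0.354 and 0.225 in trained and -0.051 and 0.137 in untrained samples. For these genes the lowest trained sample stood above the highest untrained one. Flna differed by 0.267 and Arl4c by 0.227. Myl12a overlapped, with 0.478, 0.260 and 0.141 in trained and 0.156 and 0.075 in untrained samples, and so did Tmsb10, at -0.062, so that none was lower without overlap (3.49% of all genes). The median difference of the 7 was 0.227, against 0.046 over all genes, and the mean score of all genes was itself higher in trained samples (0.041, 0.056 and 0.018) than in untrained samples (-0.002 and -0.012). Without untrained sample 2 the same 5 genes were higher without overlap (36.0% of all genes), and without untrained sample 1 they were 6 (45.1%), while Tmsb10 alone was lower (18.6%). By limma 0 genes passed in this class, and 261 had an unadjusted p under 0.05.

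In CD4-gated cells 0 of the 7 genes were higher (4.31% of all genes) and 0 lower (10.2%) without overlap. The untrained samples enclosed the trained ones for Actb, at 0.288, 0.273 and 0.188 in trained and 0.086 and 0.565 in untrained samples. They did so for Flna too, at 0.274, 0.261 and 0.225 in trained and 0.205 and 0.550 in untrained samples. The median difference of the 7 was -0.076, against -0.028 over all genes. Without untrained sample 1 none was higher (15.9% of all genes) and 5 were lower (47.2%). Without untrained sample 2, Actb, Myl12a and Flna were higher (21.4%) and none was lower (16.4%), so the direction in CD4-gated cells turned with the untrained sample used.

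The gate difference in trained minus that in untrained samples was 0.39 for Flna, 0.31 for Actb and 0.29 for Tmsb4x, given as a description. Without untrained sample 1 it was 0.594 for Flna, 0.602 for Actb and 0.491 for Tmsb4x, and with untrained sample 2 left out 0.19 for Flna, 0.02 for Actb and 0.08 for Tmsb4x. The limma interaction over all genes passed for 0 of 2923 genes, and for 10 without untrained sample 1.

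In cells above a T cell marker score of 0 none of the 7 was higher in trained samples without overlap (6.43% of all genes), and Tmsb4x alone was lower (8.34% of all genes). Tmsb4x averaged 0.406, 0.342 and 0.392 in trained and 0.419 and 0.669 in untrained samples. Tmsb10 averaged 0.548, 0.508 and 0.551 in trained and 0.503 and 1.11 in untrained samples, so the trained values lay close together and the untrained ones on either side. Without untrained sample 2, 5 of the 7 were higher without overlap (Actb, Tmsb10, Myl12a, Sept6 and Arl4c; 29.4% of all genes), and without untrained sample 1 none was and 5 were lower (49.8%). In this class too the direction turned with the untrained sample used. The difference over the T cell marker split in trained minus that in untrained samples lay between -0.22 (Tmsb10) and 0.18 (Arl4c). For Tmsb10 it was -0.650 without untrained sample 1 and 0.210 without untrained sample 2. The limma interaction passed for 0 of 2919 genes, and for 91 without untrained sample 1.

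**Figure D4:**
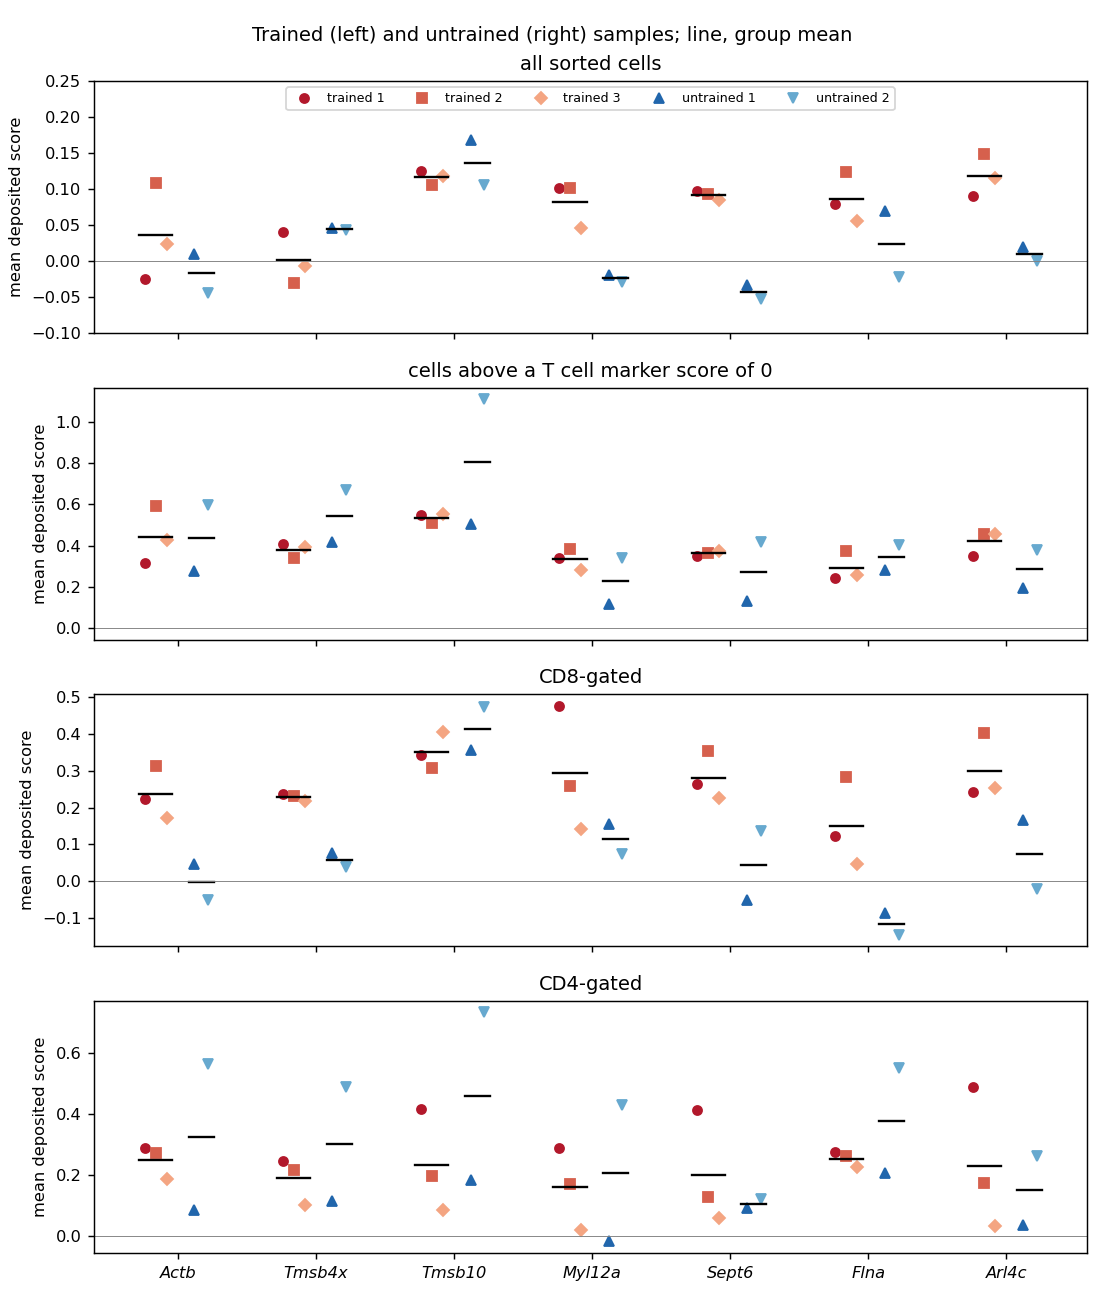
Mean deposited score per sample (vertical axis, own range in each panel) of each cytoskeleton gene (horizontal axis) in trained samples (left of each pair) and untrained samples (right) for 4 classes of cells, with black lines for group means. Trained points stand above untrained ones for 5 genes in CD8-gated cells, and untrained sample 2 is the highest point of Actb, Tmsb4x, Tmsb10, Myl12a and Flna in CD4-gated cells.

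Which genes varied together was read from the 21 pairs, as the Spearman coefficient over the cells of each sample. All 21 pairs were above 0 in every sample, and the mean over samples ran from 0.403 to 0.723 with a median of 0.518. The share of all pairs of genes above 0 in every sample is not given, here or with the regression below. Actb and Tmsb4x had the highest, at 0.726, 0.695 and 0.778 in trained and 0.659 and 0.756 in untrained samples. Actb with Tmsb10 and Tmsb4x with Tmsb10 followed at 0.690 each, and Myl12a with Flna had the lowest. Pairs of Actb and the thymosins thus stood above pairs of Sept6, Flna, Myl12a and Arl4c, which ran from 0.403 to 0.509. The median over the 21 pairs was 0.617, 0.585 and 0.596 in trained and 0.406 and 0.399 in untrained samples, where all pairs of genes had medians of 0.160, 0.159 and 0.218 in trained and 0.202 and 0.364 in untrained samples. Their 95th percentile was 0.465, 0.420 and 0.444 in trained and 0.437 and 0.633 in untrained samples. The median of the 21 pairs lay above that percentile in each trained sample and below it in each untrained sample.

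With each gene regressed on the mean score of all genes, the median over pairs was 0.064, and 4 of 21 pairs stayed above 0 in every sample. Tmsb4x with Tmsb10 was then the highest at 0.251 (0.367, 0.157 and 0.256 in trained and 0.145 and 0.330 in untrained samples). The 95th percentile over all pairs of genes was 0.350, 0.252 and 0.206 in trained and 0.200 and 0.535 in untrained samples. Tmsb4x with Tmsb10 lay above it in trained samples 1 and 3 alone. Actb with Tmsb4x had 0.192 and Actb with Myl12a 0.188, and Actb with Arl4c had the lowest, at -0.056. The median over the 21 pairs was then 0.060, 0.081 and 0.060 in trained and 0.009 and 0.196 in untrained samples, against 0.068, 0.045 and 0.030 in trained and 0.015 and 0.227 in untrained samples over all pairs of genes. Within cells above a T cell marker score of 0 and with the scores as deposited, the median over pairs was 0.120. There too Tmsb4x with Tmsb10 led (0.281), with Actb and Myl12a at 0.273 and Actb and Tmsb4x at 0.260.

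**Figure D5:**
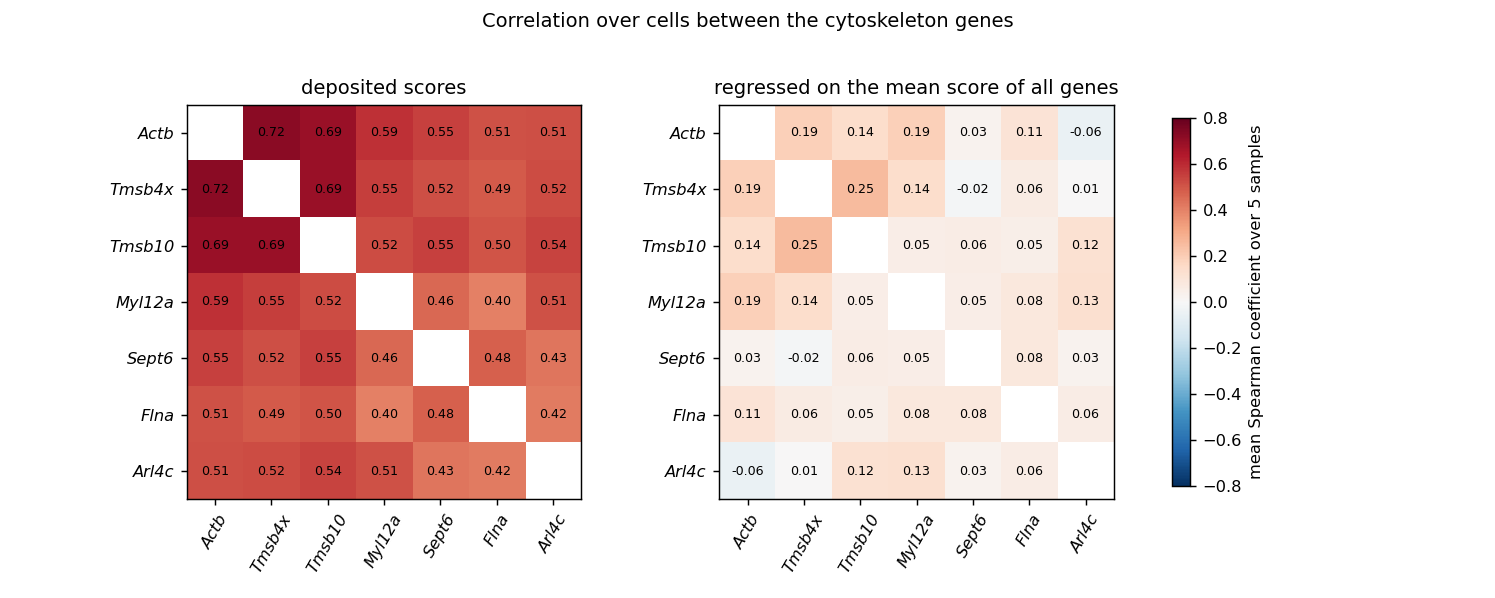
Spearman coefficient over cells for each pair of cytoskeleton genes (both axes), averaged over 5 samples, for the scores as deposited (left) and regressed on the mean score of all genes (right); colour and printed value give the same coefficient. The block of Actb, Tmsb4x and Tmsb10 is the darkest on the left (0.69 to 0.72), and on the right Tmsb4x with Tmsb10 has the highest value (0.25).

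The 3 genes outside the 7 most like each of them were read from the same coefficient. Rpl13a of the large ribosomal subunit was first for Actb (mean coefficient over 5 samples 0.754), Tmsb4x (0.724), Myl12a (0.559) and Sept6 (0.572). The next genes were the elongation factor gene Eef1a1 (0.716) and Rps4x (0.713) for Tmsb4x, Rps13 (0.554) and Rplp0 (0.550) for Myl12a, and S100a10 (0.572) and Eef1a1 (0.563) for Sept6. Actb was next to Coro1a, the actin-binding coronin of leukocytes (0.744), and to Actg1, the other cytoplasmic actin (0.713). Tmsb10 was nearest to Rps24 (0.755), Rpl38 (0.754) and Tpt1 (0.747), and Arl4c to Rpl17 (0.612), Rpl12 (0.598) and Rps24 (0.594). The first 3 of Flna were Mical1, an enzyme that oxidises actin filaments (0.537), Fam189b (0.529) and Tcf7, which codes for the T cell factor TCF1 (0.526).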

How the data were processed

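Cell Ranger is the tool in the submitters' processing notes, without a version. The build, the scaling and any integration are not given in the sources. The deposited values are scores per gene and cell, so no count test was possible and depth, and the precision it gives, is unknown. The 41 spike-in rows were kept out of tests. A further table of 384 columns repeats part of these values (largest difference 5.0e-10) and was left out. Cells were assigned to samples by the number in their names, as the labels describe. Mean scores per sample and class were fitted with limma (3.58.1, R 4.3.3) over all genes with Benjamini-Hochberg adjustment and a threshold of 0.05. Class comparisons carried sample as a block, because both classes come from the same sample, and left out the 3 gate or 7 marker genes. Correlations are Spearman's, within a sample, with scipy 1.17.1, pandas 2.3.3 and numpy 2.4.6 in Python 3.11.15. The step was tested on simulated data. The 7 genes, the lists and the markers were chosen with earlier results of these data known. Named genes are the 7, the 3 most correlated genes of each, and per list and test up to 3 past the threshold with the smallest p, or the first where none passed. Some of these are not reported here. Alternatives were other scales, summaries, cell filters, gates and samples left out, and the regression on the mean of all genes was added after the data were seen.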

Additional observations from a re-analysis of the deposited data

Results flagged for a closer look

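In 5 cases untrained sample 2 lay far from the other 4 samples. In the gate comparison (CD8-gated minus CD4-gated) its difference was -0.615 for Actb, where the other samples lay between -0.063 and 0.040. For Tmsb4x it was -0.451, against -0.039 to 0.115, and for Myl12a -0.355, against 0.090 to 0.189. In the split by T cell marker score (above minus at or below 0) its difference was 0.991 for Tmsb4x, against 0.813 to 0.859, and 1.59 for Tmsb10, against 0.730 to 0.962. Of the 14 sets of 5 samples looked at, chance flags about 1 in 20. The scores also spread more widely over the cells of this sample. Their SD over cells was 0.870 for Actb, against 0.538 to 0.740 in the other samples, and 1.06 for Tmsb10, against 0.573 to 0.759. What part this has in the gaps was not tested.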

How the results depend on the processing

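Between the gates none of the 7 genes passed under any setting, and the 5 genes of all that passed became 30 with no replicate block (the sample term removed), 53 with scores divided by their SD, 0 with medians over cells, 8 without genes of low SD, 0 without cells high in myeloid markers, 31 without cells high in noncoding transcripts, 10 with the mean of all genes subtracted, 11 with gated cells above a T cell marker score of 0 alone, 65 with the regression on the mean, and 0 to 7 with each sample left out. Gate differences turned for Tmsb10 (-0.0337) and Myl12a (-0.0908) with medians, Tmsb10 (-0.0343) and Sept6 (-0.0299) without myeloid-high cells, Arl4c (-0.0515) with a gate at 0.25 and Tmsb4x (0.0286) with the regression. With a sample left out they ran from -0.0270 to 0.0668 for Sept6, -0.0440 to 0.0844 for Arl4c, -0.0128 to 0.133 for Tmsb10 and -0.121 to 0.0206 for Tmsb4x. Over the T cell marker score 2592 genes became 1669 with medians, 1381 without genes of low SD, 1669 without noncoding-high cells, 1441 with the mean subtracted, 0 with the regression (0 of the 7) and 2407 to 2689 with a sample left out, and Tmsb10, Myl12a, Sept6, Flna and Arl4c passed in every setting but the regression. With a sample left out, the interaction of gate and training ran from -0.0502 to 0.383 for Tmsb10, -0.0412 to 0.489 for Myl12a and -0.0618 to 0.352 for Arl4c. That of the T cell marker split passed for 0 to 91 genes and 0 to 1 of the 7 (Tmsb10, without untrained sample 1) and ran from -0.0966 to 0.335 for Actb, -0.0150 to 0.270 for Myl12a, -0.137 to 0.253 for Sept6, -0.143 to 0.0357 for Tmsb4x and -0.650 to 0.210 for Tmsb10. It was 0.167 for Flna with medians and 0.0292 for Tmsb4x with SD-scaled scores. Training in all sorted cells passed for 0 to 3 genes with a sample left out, and 3 to 5 of the 7 were higher without overlap, beside 19.1% and 33.3% of all genes without untrained sample 2 and 1. The median over pairs (0.518) was 0.281 with the mean subtracted, 0.120 in cells above a T cell marker score of 0, 0.064 with the regression and 0.492 to 0.559 with a sample left out. Where no construction shows it, the cause was not tested. With no counts, depth sets no stated limit, and 2 untrained samples, 1 of them apart from the rest, limit every training value.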
